A study of Mus musculus with 21 samples.

Results

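Control livers collected on day 6 after partial hepatectomy were compared with control livers collected on day 2, a comparison that follows regenerating liver from its early to its later phase. The groups were taken from the sample titles: 3 control mice of day 6 (303, 392 and 393) and 3 control mice of day 2 (263, 264 and 265), which makes 6 of the 21 arrays of the series. No measured value entered this assignment of arrays to groups, but the comparison was chosen with earlier results of these data known. All were 9-month-old male mice of the strain FVB129P2/FVBNJ with an intact Mdr2 (Abcb4) gene, and all had 30% of the liver removed. Each array held RNA of 1 liver sample from 1 mouse, and the day 2 and day 6 groups shared no mouse. The removed lobe gave the day 0 sample of mice 263, 265 and 303. The series also holds Mdr2 knockout mice (KO; strain FVB129P2), of which 3 were sampled on day 2 and 3 on day 6 after the same operation. KO and control differ in strain background as well as in genotype. A 30% resection is a mild stimulus, and there was no group with a sham operation among these samples.

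After part of the liver is removed, hepatocytes that had left the cell cycle re-enter it, copy their DNA and divide, while they go on serving metabolism. DNA replication depends on licensing factors of the MCM helicase, which E2F transcription factors control, whereas genes of mitosis are switched on later through promoter elements that include CHR and CCAAT boxes. Interferons act through a separate route, in which STAT and IRF factors bind promoter elements built from GAAA repeats.

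Values are GCRMA-processed log2 signals, in which a step of 1 is a factor of 2. The tests used 7320 of 12393 genes, those above log2 4 on at least 3 of all arrays, and a gene was called where its adjusted p was under 0.05. A level at or under 4 was treated as not distinguishable from background, so a difference from a group wholly at that level was also given against 4 as a lower bound. In bulk tissue, fewer cells of a type and less RNA per cell cannot be told apart.

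The arrays differed in RNA quality. Abcb4 lay between 7.25 and 8.96 on the KO arrays and between 9.23 and 10.33 on the control arrays, which matched the labels. The array carries control probe sets for the 3' and 5' ends of Gapdh, and a large difference between them marks RNA that is short or was copied incompletely. On day 2 the Gapdh difference was 1.58 in mouse 263, 0.07 in mouse 264 and 9.50 in mouse 265. On day 6 it was 0.94 in mouse 303, -0.03 in mouse 392 and 0.08 in mouse 393. The array of mouse 265 thus stood apart from all others of the series, and beta-actin gave the same order for day 2, with 3.91, 1.81 and 5.92. The median SD of a gene was 0.475 on day 2, 0.300 on day 6 and 0.214 in the day 0 controls. The mean correlation between arrays of a group was 0.906 on day 2, 0.946 on day 6 and 0.980 on day 0.

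**Figure D1:**
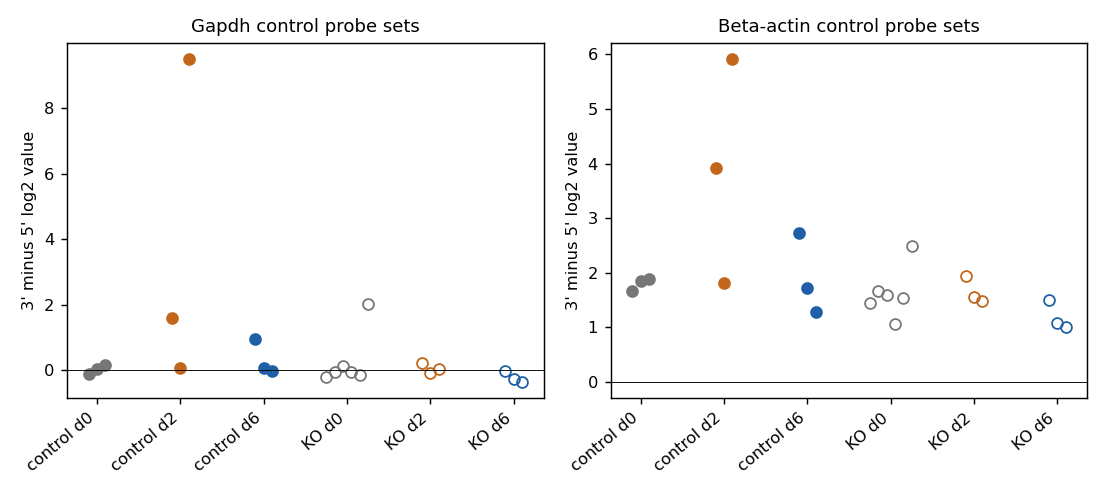
Differences between the 3' and 5' control probe sets of Gapdh (left) and beta-actin (right), in log2 units, with 1 point per array and 1 column per group. The day 2 array of mouse 265 is the highest of all in both panels, at 9.50 and 5.92.

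Across the genome, 142 genes (1.94% of those tested) differed between day 6 and day 2: 78 were higher on day 6 (1.07%) and 64 lower (0.874%). The 3 arrays of a day did not overlap with those of the other in 1065 genes (14.5%), of which 382 were higher (5.22%) and 683 lower (9.33%) on day 6. Of the called genes, 139 were among them, and 107 (1.46% of those tested) changed by at least 2-fold. The median change over all genes was -0.04, and 46.7% of the genes had a higher value on day 6. These counts used an error shared over all 21 arrays; a fit of the 6 arrays alone called 0 genes with limma, with 557 at an unadjusted p under 0.05, against 1591 in the fit of all arrays. The count of 142 fell to 17 with weights for array quality and to 30 with the Gapdh difference as a covariate. In the series 3 arrays had a Gapdh difference above 1: day 2 control mice 263 and 265 and day 0 KO mouse 337. A fit without them left 1 day 2 control array, that of mouse 264. For that fit genes and lists are given by sizes of change only, since it cannot separate RNA quality from a single mouse. Its total of called genes appears only among the alternatives in the last section. No conclusion is drawn from that total, for the same reason. Without the day 2 arrays of mice 263, 264 and 265 in turn, 313, 852 and 81 genes were called, and without the day 6 arrays of mice 303, 392 and 393, 207, 45 and 105.

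Some genes of DNA replication and of mitosis rose between day 2 and day 6. Of 32 tested genes of DNA replication and licensing, 6 rose, none fell and 26 did not pass, with a median change of 0.65. Of 25 tested genes of mitosis and chromosome segregation, 9 rose, none fell and 16 did not pass, with a median change of 2.07 against -0.04 over all genes. A higher value on day 6 was seen for 30 of the 32 and for 25 of the 25. Shares over all genes tested were 1.07% called higher and 46.7% with a higher value. Among all members on the array, with no filter, 40 of 45 and 48 of 51 were higher, with medians of 0.54 and 1.57. In each list 1 tested gene passed the filter only through the day 6 control arrays. Of all genes tested, 3 did so, and all 3 were called. Their calls are within the counts above but are no support, since only their day 6 values admitted them to the test. With no filter on low values, 7 replication and 9 mitosis members were called higher. Without the array of mouse 265 the counts of tested members that rose were 6 and 6. With the Gapdh difference as a covariate they were 3 and 3, and with weights for array quality 2 and 5. Without the day 6 array of mouse 392 they were 4 and 6, without that of mouse 393 they were 6 and 6, and without that of mouse 303 they were 6 and 22. The mitosis median was 3.24 without mouse 303 and 1.33 without mouse 393.

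Promoters of 4 of these genes are shown because the genes rose and carry elements known for each phase. Sequences run from 250 bases before to 50 bases after the start of the gene, from RefSeq on GRCm38.p6, 5′ to 3′ on the strand of the gene. The promoters of Mcm5 (chr8:75109259-75109558, + strand) and Mcm6 (chr1:128359656-128359955, - strand) have the E2F matches in capitals; neighbouring matches overlap and run together.
Mcm5: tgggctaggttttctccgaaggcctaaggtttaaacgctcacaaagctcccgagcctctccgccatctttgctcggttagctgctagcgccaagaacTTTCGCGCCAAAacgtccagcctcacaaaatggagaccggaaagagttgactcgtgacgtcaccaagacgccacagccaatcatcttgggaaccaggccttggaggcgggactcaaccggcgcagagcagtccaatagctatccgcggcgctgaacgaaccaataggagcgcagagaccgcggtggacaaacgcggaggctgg
Mcm6: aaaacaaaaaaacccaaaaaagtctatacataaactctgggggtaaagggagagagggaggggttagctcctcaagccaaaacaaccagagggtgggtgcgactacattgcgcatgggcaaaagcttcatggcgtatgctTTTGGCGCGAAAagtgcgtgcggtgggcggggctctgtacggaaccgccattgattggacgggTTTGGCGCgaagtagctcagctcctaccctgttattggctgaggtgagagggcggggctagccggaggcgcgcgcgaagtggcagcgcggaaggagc
The promoters of Cdk1 (chr10:69352863-69353162, - strand) and Top2a (chr11:99024140-99024439, - strand) have the CHR matches in capitals; the Cdk1 promoter also holds 1 E2F match, not marked here, and is the only one of the mitosis list to do so.
Cdk1: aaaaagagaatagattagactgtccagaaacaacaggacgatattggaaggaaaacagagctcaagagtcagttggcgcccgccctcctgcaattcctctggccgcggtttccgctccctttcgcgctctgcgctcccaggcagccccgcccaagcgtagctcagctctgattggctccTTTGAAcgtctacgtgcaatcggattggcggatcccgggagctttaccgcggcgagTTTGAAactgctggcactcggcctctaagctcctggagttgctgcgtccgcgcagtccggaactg
Top2a: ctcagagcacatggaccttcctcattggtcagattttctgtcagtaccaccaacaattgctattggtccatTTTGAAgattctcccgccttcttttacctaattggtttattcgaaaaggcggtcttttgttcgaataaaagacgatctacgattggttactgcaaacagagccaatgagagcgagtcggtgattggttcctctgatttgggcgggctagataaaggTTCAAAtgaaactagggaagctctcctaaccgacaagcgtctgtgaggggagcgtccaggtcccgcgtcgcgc
These 4 were picked, after their values were seen, from the called genes that hold a match. The E2F search took TTTGGCGC, TTTCCCGC, TTTGCCGC or TTTCGCGC on either strand, the CHR search TTTGAA and the CCAAT search CCAAT. E2F matches occurred in 16 of 39 replication genes of the list that had a promoter sequence (41%) and in 1 of 43 mitosis genes (2.33%), against 2.60% of 27025 genes. CHR matches occurred in 9 of the replication genes (23.1%) and in 29 of the mitosis genes (67.4%), against 20.2% of all genes. CCAAT matches occurred in 64.1% and 76.7%, against 41.1%. Among the called genes with a promoter sequence, 3 of 6 replication genes held an E2F match and 5 of 7 mitosis genes a CHR match. A match is a description of letters and does not show binding.

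Among the replication genes, subunits of the MCM helicase, which unwinds DNA at the fork, had the largest changes. Mcm5 stood at 2.45, 2.32 and 2.44 on day 2 in mice 263, 264 and 265, and at 6.44, 5.02 and 4.95 on day 6 in mice 303, 392 and 393. The day 2 arrays were all at background and the day 6 arrays all above them, a change of 3.07 (SE 0.36, adjusted p = 0.000497), or at least 1.47 against the background level. Mcm6 was 2.94, 3.53 and 4.95 on day 2 and 8.13, 6.68 and 6.37 on day 6, with no overlap and mouse 303 highest, and rose by 3.25 (SE 0.58, adjusted p = 0.00870). Mcm2 was 2.49, 3.29 and 2.30 on day 2 and 5.96, 4.90 and 4.02 on day 6, again with no overlap, and rose by 2.27 (adjusted p = 0.00918), at least 0.96 against background. Rfc5, a subunit of the loader that places the Pcna clamp on DNA, rose by 1.92 (adjusted p = 0.00549), from 3.90, 4.47 and 3.72 to 5.52, 5.81 and 6.51. Pcna, the clamp itself, was abundant on both days and rose by 1.10 (adjusted p = 0.0204), from 8.61, 9.45 and 8.96 to 10.31, 10.14 and 9.87. Lig1, the ligase that joins new DNA fragments and was named after its values were seen, rose by 0.99 (adjusted p = 0.0232), at least 0.38 against background. A second probe set gave 0.54 for Mcm2 and 1.97 for Mcm6. Pcna was no longer called without mouse 392 (0.0645), nor Lig1 without mouse 303 (0.0534) or 392 (0.0564), whereas Mcm2, Mcm5, Mcm6 and Rfc5 passed without any single array.

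The remaining MCM subunits, also named after their values were seen, did not pass. Mcm3 changed by 1.45 (adjusted p = 0.198), Mcm7 by 0.74 (0.109) and Mcm4 by 0.63 (0.496), and each had overlapping arrays. Mcm4 was at 7.45 in mouse 303 but at 4.85 and 4.84 in mice 392 and 393, which lay at the day 2 levels of 4.85, 4.85 and 5.54, and without mouse 303 its change was -0.23. The ribonucleotide reductase subunits, which make the DNA building blocks, had changes of 0.72 for Rrm1 (0.0782; named after its values were seen) and 1.87 for Rrm2 (0.0766). Other probe sets of the same genes differed by over 1.5 times, with 2.07 for Mcm7 and 2.04 for Rrm1. None of 16 tested genes of nucleotide synthesis passed.

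The mitosis genes were at or under background on day 2 in 13 of the 25 cases. Cdk1, the kinase that drives entry into mitosis, was 3.38, 3.83 and 3.39 on day 2 and 5.47, 7.69 and 9.44 on day 6. The arrays did not overlap, and mouse 393 was highest and mouse 303 lowest of day 6; the rise was 4.0 (SE 0.66, adjusted p = 0.00601), at least 3.53 against background. Top2a, the topoisomerase that untangles chromosomes, was 2.91, 2.35 and 2.94 and then 4.82, 5.94 and 7.05, a rise of 3.20 (SE 0.41, adjusted p = 0.000595), at least 1.94. Mki67, a coat protein of mitotic chromosomes used as a proliferation marker, was 3.14, 3.27 and 4.35 and then 5.81, 6.75 and 8.05, a rise of 3.28 (adjusted p = 0.00601). Mad2l1, of the spindle checkpoint, rose by 3.25 (adjusted p = 0.00870), from 4.17, 4.55 and 4.02 to 5.96, 7.27 and 9.26. Ube2c, which helps degrade mitotic cyclins, was 2.43, 3.62 and 2.18 and then 3.97, 7.91 and 10.22, so that mouse 303 stayed at background; it rose by 4.62 (SE 1.11, adjusted p = 0.0369), at least 3.37 against background. Birc5, of the chromosomal passenger complex, rose by 3.87 (adjusted p = 0.0260) and Ckap2, a spindle protein, by 3.83 (0.0266), at least 3.13 and 2.65. Pbk, a mitotic kinase, Smc2, a condensin subunit, and Stmn1, a microtubule regulator, were named after their values were seen and rose by 2.96 (0.0109), 1.71 (0.0143) and 2.07 (0.0302); for Pbk this is at least 1.93, and a second probe set of Stmn1 gave 0.99.

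Single arrays decided part of these calls. Cdk1, Top2a, Mki67, Mad2l1, Pbk and Smc2 passed without any single array. Birc5 and Ckap2 did not pass without mouse 265 (0.0787 and 0.0841), 392 (0.0834 and 0.0885) or 393 (0.0850 and 0.0791). Ube2c and Stmn1 did not pass without mouse 263 (0.0545 and 0.0520), 265 (0.107 and 0.0674), 392 (0.116 and 0.0799) or 393 (0.126 and 0.0866). The cyclins of mitosis, named after their values were seen, had large changes that did not pass: 2.91 for Ccna2 (adjusted p = 0.0618) and 3.79 for Ccnb2 (0.0667), or 2.05 and 1.85 against background. Ccnb2 was 2.32, 6.39 and 8.84 on day 6, so that mouse 303 was near the day 2 levels of 1.95, 2.05 and 2.18.

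The 3 day 6 mice were ordered differently by the replication and mitosis lists. The mean level of the replication genes, as a difference from the day 0 controls, was 1.33 in mouse 303, 0.87 in mouse 392 and 1.0 in mouse 393. That of the mitosis genes was 1.01, 2.68 and 4.61 in the same mice. On day 2 the corresponding levels lay between 0.05 and 0.28 for replication and between 0.20 and 0.41 for mitosis. Mouse 303 was therefore highest for the first list and lowest for the second, while mouse 393 was highest for the second. With 1 array per mouse, no spread within a mouse was available.

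**Figure D2:**
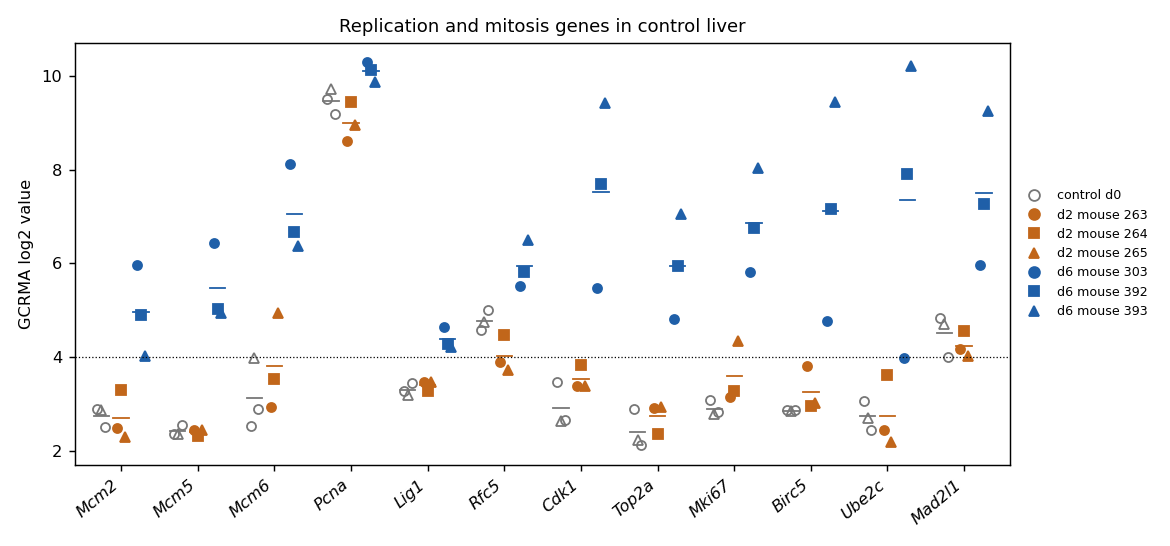
GCRMA log2 values of 6 replication and 6 mitosis genes in control liver, 1 point per array, with short lines for group means, grey for day 0, orange for day 2 and blue for day 6; the dotted line is log2 4. Mcm2, Mcm5 and Mcm6 are highest in mouse 303 on day 6, while Cdk1 to Mad2l1 are lowest in it and highest in mouse 393.

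Of 17 tested cyclins, CDK inhibitors and related factors, 1 rose, 1 fell and 15 did not pass, with a median of 0.07. The shares that rose and fell over all genes were 1.07% and 0.874%. Rbl1, the retinoblastoma relative p107, was 2.96, 3.19 and 3.33 on day 2 and 5.17, 4.70 and 4.88 on day 6, and rose by 1.76 (adjusted p = 0.0248), at least 0.92 against background. E2f8, an E2F that represses transcription, was 6.22, 6.99 and 8.23 on day 2 and 5.73, 5.83 and 4.86 on day 6, and fell by 1.67 (adjusted p = 0.0401). Rbl1 was not called without mouse 392 (0.0564) or 393 (0.0506), nor E2f8 without mouse 265 (0.140), 392 (0.0772) or 393 (0.128). Ccnd1, the cyclin of the step from G1 towards DNA synthesis, had 8.63, 8.82 and 5.75 on day 2 and 10.17, 9.79 and 9.93 on day 6, with mouse 265 far below the other day 2 arrays, and its change of 2.23 did not pass (adjusted p = 0.0503). Cdkn1a, the CDK inhibitor p21, was 6.52, 8.97 and 8.26 on day 2 and 5.85, 8.48 and 9.24 on day 6; the arrays overlapped widely and the change was -0.06 (SE 0.99, adjusted p = 0.981). No tested p53 target (17) or double-strand break repair gene (12) passed; the smallest p belonged to Perp (-0.59, adjusted p = 0.0596) and Trp53bp1 (-1.67, 0.0651).

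Some interferon-stimulated genes also rose. Of 28 tested, 10 rose, none fell and 18 did not pass, where 1.07% of all genes rose. All 28 had a higher value on day 6, against 46.7% of all genes, and the median change was 2.60. Without the array of mouse 265, 7 rose, with the Gapdh covariate 5 and with weights for array quality 3. The median was 2.77 without the 3 arrays with a Gapdh difference above 1. Without the day 6 arrays of mice 303, 392 and 393, 9, 4 and 13 rose. The promoters of Ifit1 (chr19:34640639-34640938, + strand) and Oas1a (chr5:120907476-120907775, - strand) are shown because both genes rose and both hold pairs of GAAA separated by 2 bases, in capitals on either strand, where overlapping pairs run together.
Ifit1: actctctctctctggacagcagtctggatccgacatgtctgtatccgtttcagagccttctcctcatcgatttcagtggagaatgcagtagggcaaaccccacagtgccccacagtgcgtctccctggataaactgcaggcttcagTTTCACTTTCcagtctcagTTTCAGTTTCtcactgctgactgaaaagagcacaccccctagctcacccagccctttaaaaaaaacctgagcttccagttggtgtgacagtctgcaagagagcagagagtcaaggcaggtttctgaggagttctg
Oas1a: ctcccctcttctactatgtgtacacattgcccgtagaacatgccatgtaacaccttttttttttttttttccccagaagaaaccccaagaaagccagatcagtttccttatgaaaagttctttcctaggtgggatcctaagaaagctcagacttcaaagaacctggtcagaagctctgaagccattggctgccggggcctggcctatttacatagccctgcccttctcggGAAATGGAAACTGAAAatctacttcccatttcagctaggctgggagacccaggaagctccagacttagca
This pattern, added after the values were seen, occurred in 16 of 28 genes of the list with a promoter sequence (57.1%), against 3.99% of all genes.

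The largest changes of called members were those of Usp18, Oas1a, Ifit1 and Irf7. Usp18, which damps signalling at the interferon receptor, was 2.73, 2.60 and 2.77 on day 2 and 5.71, 9.97 and 7.23 on day 6 in mice 303, 392 and 393. The arrays did not overlap, mouse 392 was highest, and the rise was 4.94 (SE 0.86, adjusted p = 0.00787), at least 3.64 against background. Oas1a, a sensor of double-stranded RNA, was 2.59, 2.66 and 2.57 and then 6.41, 9.61 and 6.57, a rise of 4.92 (adjusted p = 0.00558), at least 3.53. Irf7, the transcription factor that amplifies the type I response, was 2.04, 2.78 and 2.05 and then 5.46, 9.18 and 6.52, a rise of 4.76 (adjusted p = 0.00601), at least 3.05. Ifit1, which binds foreign RNA, rose by 4.81 (SE 1.22, adjusted p = 0.0491), at least 3.69, with 10.81 in mouse 392 against 5.30 and 6.95 in mice 303 and 393. Ifit3, named after its values were seen, had a change of 4.22 that did not pass (0.0618). Bst2, which tethers virus particles and was also named after its values were seen, rose by 2.55 (0.00558), from 8.78, 8.66 and 7.40 to 10.42, 11.65 and 10.43. Usp18, Oas1a, Irf7 and Bst2 passed without any single array, while Ifit1 did not without mouse 263 (0.0635), 265 (0.103), 392 (0.179) or 393 (0.0742).

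Among genes known for their response to interferon gamma, some had another order of the mice. Igtp, a GTPase of cell-autonomous defence, was 8.36, 8.65 and 8.79 on day 2 and 13.43, 11.95 and 10.22 on day 6, with no overlap and mouse 303 highest, and rose by 3.27 (SE 0.71, adjusted p = 0.0258). Gbp7, a guanylate-binding protein, rose by 3.35 (0.0369), with 10.67, 10.04 and 7.52 on day 6. The genes Irgm1, Psmb8, Psmb9 and Ifi35 were named after their values were seen. Irgm1, another such GTPase, rose by 2.72 (0.0260), and the immunoproteasome subunits Psmb8 and Psmb9, which cut peptides for display, rose by 2.38 (0.0196) and 2.50 (0.0259). Ifi35 rose by 1.78 (0.0481). All of these lost the call without mouse 392: Igtp (0.0806), Gbp7 (0.124), Irgm1 (0.0998), Psmb8 (0.0850), Psmb9 (0.0891) and Ifi35 (0.173). Without mouse 303, Igtp (0.0626), Gbp7 (0.0822), Irgm1 (0.0626) and Psmb9 (0.0635) lost it, without mouse 263 Gbp7 (0.0648) and Irgm1 (0.0543), without mouse 265 Igtp (0.0566) and Ifi35 (0.161), and without mouse 393 Ifi35 (0.0615).

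Of 13 tested antigen presentation genes none passed. All 13 had a higher value on day 6, against 46.7% of all genes, and the median was 1.31. Without mouse 303 the median was 0.35, and without mouse 393 it was 1.97 with 2 genes called. The mean level of the list was 8.18 to 8.46 on day 2 and 11.11, 9.22 and 8.27 on day 6 in mice 303, 392 and 393, so that mouse 393 lay within the day 2 range. H2-D1, a class I molecule, changed by 0.83 (adjusted p = 0.0782). Cxcl9, a chemokine that draws T cells, was 11.09 in mouse 303, 8.51 in mouse 392 and 5.55 in mouse 393 and changed by 2.68 (adjusted p = 0.160). Markers of immune cells are given beside these genes. The mean level of 15 tested Kupffer cell markers was 7.28 to 7.53 on day 2, and on day 6 it was 9.59 in mouse 303, 8.58 in mouse 392 and 7.04 in mouse 393. That of 14 markers of recruited monocytes and macrophages was 5.79 to 6.73 on day 2 and 8.21, 7.32 and 5.84 on day 6. None of either list passed. Of 15 T and NK cell markers on the array only 1 passed the filter on low values, and it was at 2.32, 4.42 and 2.20 on day 6. The part of these cells in the interferon result was not tested.

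**Figure D3:**
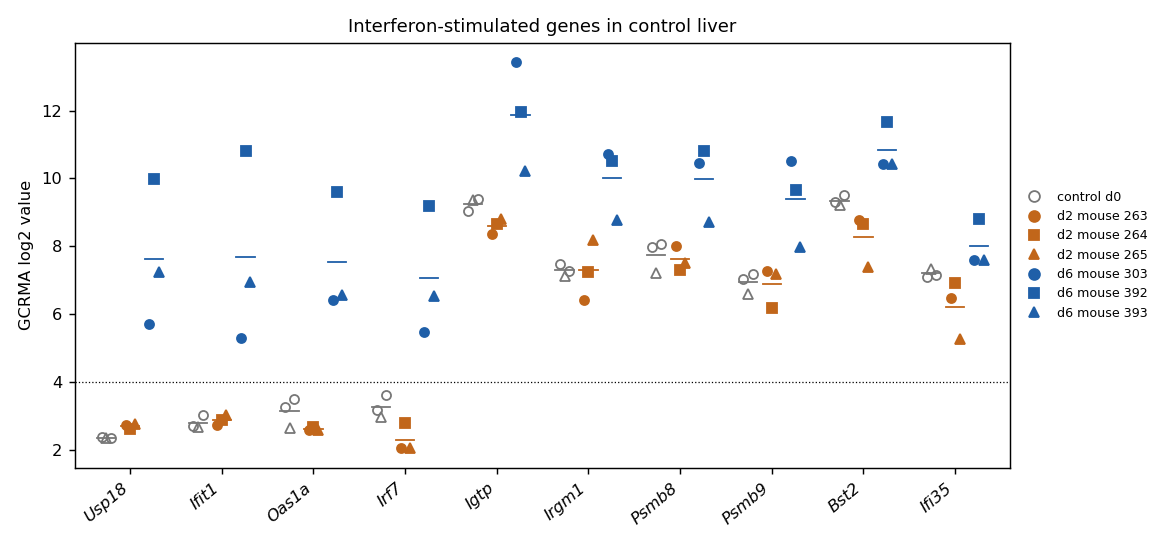
GCRMA log2 values of 10 interferon-stimulated genes in control liver, 1 point per array, with short lines for group means, grey for day 0, orange for day 2 and blue for day 6; the dotted line is log2 4. All 10 are higher on each day 6 array than on each day 2 array; Usp18 to Irf7 are highest in mouse 392 and Igtp and Psmb9 in mouse 303.

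Some glutathione transferases, which couple glutathione to reactive compounds, rose as well. Their list, which also holds genes of the redox factor NRF2, had medians against the day 0 controls of -1.11 on day 2 and -0.08 on day 6. Of 31 tested transferases and other genes of glutathione and the redox factor NRF2, 7 rose, none fell and 24 did not pass. Over all genes 1.07% rose. All 31 had a higher value on day 6, against 46.7% of all genes, and the median change was 0.85. Without the array of mouse 265 the count of rises was 4 and the median change 0.57. With the Gapdh covariate they were 2 and 0.53, and with weights for array quality 2 and 0.69. Without the 3 arrays with a Gapdh difference above 1 the median change was 0.40. Without mouse 392 the count was 3, without mouse 393 it was 4, and without mouse 263 or 264 it was 12. The mean level of the list was lowest in mouse 265, at 8.27, against 9.24 and 9.54 in mice 263 and 264 and 9.74 to 10.57 on day 6. The day 2 array with the largest Gapdh difference was thus also the lowest for these genes, and its part in the result was not tested further. The ARE pattern, TGACNNNGC with N for any base, was searched on either strand after the values were seen. It occurred in 11 of 32 list genes with a promoter sequence (34.4%), against 14% of all genes. Among called members with a promoter sequence it occurred in 1 of 7 (14.3%).

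Gstm3 was 7.68, 8.30 and 6.12 on day 2 and 11.45, 11.92 and 13.18 on day 6, with no overlap, and rose by 4.82 (SE 0.58, adjusted p = 0.000497). Gstm1 was 11.35, 12.05 and 8.79 and then 13.20, 13.62 and 14.52, a rise of 3.05 (SE 0.55, adjusted p = 0.00897). Gstm6 rose by 2.72 (0.00787), from 5.73, 6.39 and 4.69 to 7.66, 8.23 and 9.08. For all 3 the array of mouse 265 was lowest and that of mouse 393 highest, and all 3 passed without any single array. Gsta2 rose by 3.09 (0.0350) and Gstp1, an abundant transferase, by 0.96 (0.0258), while Gstm2 rose by 2.40 (0.0275) and Srxn1, which restores oxidised peroxiredoxins, by 2.11 (0.0232), both named after their values were seen. Without mouse 265, 392 or 393, Gsta2 (0.128, 0.0614 and 0.0980), Gstp1 (0.0560, 0.0564 and 0.0831) and Gstm2 (0.109, 0.0545 and 0.0982) were not called, and Srxn1 was not without mouse 392 (0.0962). Transferases of one family are near-identical in sequence, so probe sets may share signal between them. Gstm4, Gsta3 and Nqo1, named after their values were seen, changed by 1.22 (0.123), 2.34 (0.0650) and 0.85 (0.187; 0.48 against background), and Hmox1, the haem-degrading enzyme, by 0.81 (0.476).

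Of 43 tested genes of the urea cycle and amino acid breakdown, 2 rose and none fell (1.07% and 0.874% over all genes). A higher value was seen for 37, against 46.7% of all genes, and the median was 0.53. None rose without mouse 303, with the Gapdh covariate or with array weights; 1 rose without mouse 265 or 393, 7 without mouse 263, and 4 rose and 1 fell without mouse 264. Hpd, of tyrosine breakdown, was 12.80, 12.77 and 12.68 on day 2 and 14.07, 13.39 and 13.70 on day 6, and rose by 0.97 (adjusted p = 0.0224). Got1, the cytosolic aspartate aminotransferase, rose by 1.74 (0.0326), from 7.99, 8.58 and 8.59 to 10.06, 9.59 and 10.72. Hsd3b3, a steroid dehydrogenase, was 7.20, 5.69 and 3.38 and then 8.47, 8.42 and 9.55, a rise of 3.39 (0.0131). Rarres2, the adipokine chemerin made by hepatocytes, was 11.41, 10.86 and 10.36 and then 12.54, 12.44 and 12.62, a rise of 1.66 (SE 0.21, adjusted p = 0.000592). Hsd3b3 and Rarres2 passed without any single array; Hpd did not without mouse 265 (0.0576) or 303 (0.0540), and Got1 did not without mouse 263 (0.0622), 265 (0.0674), 303 (0.0502) or 393 (0.113). Alb, albumin, changed by 0.14 (adjusted p = 0.574), and the mean level of 24 mature hepatocyte markers was 13.10 to 13.19 on day 2 and 13.32 to 13.48 on day 6.

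Further liver enzymes had changes that did not pass. Cyp7a1, which catalyses the first step from cholesterol to bile acids, was 8.31, 8.49 and 3.24 on day 2 and 9.78, 7.75 and 10.19 on day 6, with mouse 265 apart, and changed by 2.56 (adjusted p = 0.227). Hsd3b5, a male-specific steroid enzyme, was 10.95, 7.86 and 3.05 and then 9.69, 8.39 and 11.58 (2.60, adjusted p = 0.330). Alas1, of haem synthesis, changed by 1.82 (0.0596), Sult5a1 by 1.86 (0.0611), Pygl, the liver glycogen phosphorylase, by 0.79 (0.0575), Cyp2f2, a periportal enzyme, by 1.30 (0.105) and Cyp2b10, a drug-inducible enzyme, by -0.80 (0.540).

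Single genes of other lists also rose. Tubb4b, a tubulin, was 7.85, 8.96 and 7.85 and then 9.15, 10.85 and 10.93, a rise of 2.09 (adjusted p = 0.0201). Atp5b, a subunit of the mitochondrial ATP synthase, rose by 1.02 (0.0297) and Psmc5, an ATPase of the proteasome, by 0.77 (0.0464). Ndufa2, of respiratory complex I, fell by 0.74 (0.0304). Thus 1 of 49 tested oxidative phosphorylation genes rose and 1 fell, beside 1.07% and 0.874% over all genes tested. All 4 lost the call without mouse 265: Tubb4b (0.0640), Atp5b (0.109), Psmc5 (0.139) and Ndufa2 (0.0846). They also lost it without mouse 392 (0.0834, 0.0885, 0.147 and 0.0834), and without mouse 393 Tubb4b (0.0657), Atp5b (0.0971) and Ndufa2 (0.0980) did. Psmc5 further lost it without mouse 263 (0.0736) or 303 (0.0695), and Ndufa2 without mouse 263 (0.0549).

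Of 37 tested genes of fatty acid oxidation and targets of the lipid sensor PPAR alpha, 3 fell, none rose and 34 did not pass. Over all genes 0.874% fell and 46.7% had a higher value. In the list 26 had a lower value and the median was -0.32. The count of falls was 2 without mouse 265, 1 with the Gapdh covariate and 0 with weights for array quality. Without mouse 263, 264, 303 or 393 it was 10, 5, 1 or 1, and without mouse 264 another 2 rose. The median was -0.66 without mouse 265, -0.67 with the covariate, -0.21 without mouse 264 and -0.18 without mouse 303. It was -0.75 without the 3 arrays with a Gapdh difference above 1. Slc25a20, which carries acylcarnitines into mitochondria, was 11.69, 11.29 and 11.49 on day 2 and 10.01, 10.64 and 10.37 on day 6, and fell by 1.15 (SE 0.22, adjusted p = 0.0121), also without any single array; a second probe set gave -0.42. Cyp4a14, a fatty acid hydroxylase induced by PPAR alpha, was 9.61, 12.19 and 8.33 and then 2.64, 9.21 and 2.62. Mouse 392 overlapped with the day 2 arrays while the other day 6 mice were at background, and the gene fell by 5.22 (SE 1.22, adjusted p = 0.0326), but not without mouse 303 (0.0764) or 393 (0.117). Acot3, which splits acyl-CoA in peroxisomes, was 5.59, 8.33 and 6.77 and then 2.96, 3.52 and 3.24, and fell by 3.66 (adjusted p = 0.0266), by at least 2.90 against background; it did not pass without mouse 265 (0.0674), 303 (0.0524), 392 (0.0772) or 393 (0.0657).

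**Figure D4:**
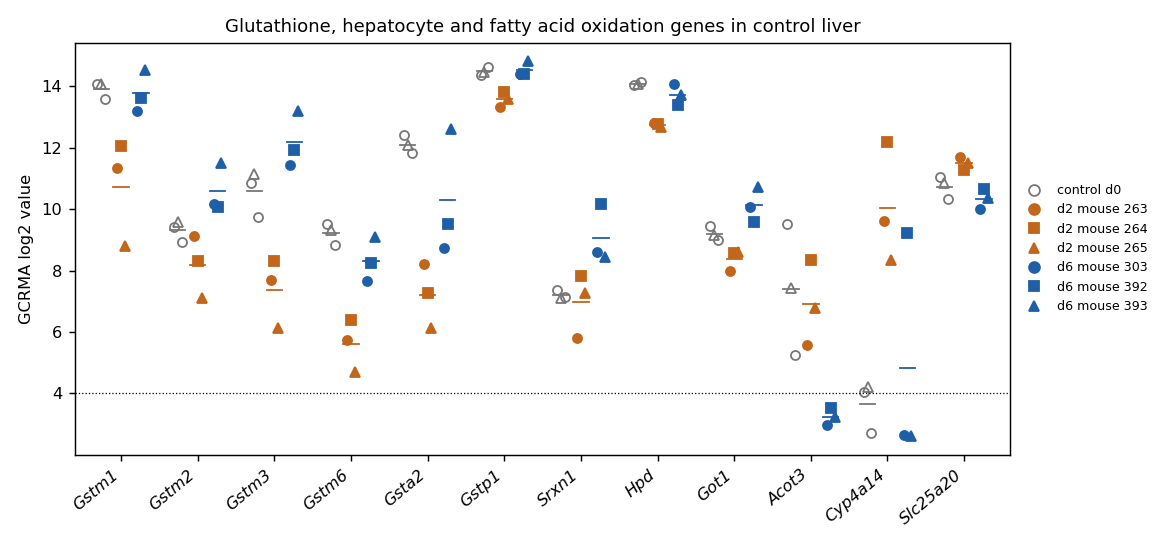
GCRMA log2 values of 7 glutathione or NRF2 genes, 2 amino acid enzymes and 3 fatty acid genes in control liver, 1 point per array, with short lines for group means, grey for day 0, orange for day 2 and blue for day 6; the dotted line is log2 4. Gstm1, Gstm3 and Gstm6 are lowest in mouse 265, and Cyp4a14 stays at 9.21 in mouse 392 on day 6.

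The other large falls came from varied genes. Ddhd2, a phospholipase, was 8.01, 7.85 and 8.46 on day 2 and 6.51, 6.62 and 6.72 on day 6, and fell by 1.49 (SE 0.27, adjusted p = 0.00918), also without any single array. Rab30, a GTPase of the Golgi, fell by 2.34 (0.0248), from 6.78, 7.34 and 8.25 to 4.87, 5.57 and 4.90. Slc12a2, a sodium, potassium and chloride cotransporter, fell by 1.90 (0.0259), and Chac1, a glutathione-degrading enzyme induced by ATF4, by 1.69 (0.0260). Mmd fell by 1.57 (0.0260), Bmp2k by 1.44 (0.0260; at least 1.10 against background), Atp13a3 by 1.42 (0.0204), Klhl2 by 1.39 (0.0350), the zinc exporter Slc30a1 by 1.07 (0.0436) and the membrane protease Adam9 by 1.03 (0.0444). Other probe sets gave smaller changes for Slc12a2 (-0.98 and -0.44), Mmd (-0.87) and Atp13a3 (-0.41). The call was lost without mouse 265 for Rab30 (0.0915), Slc12a2 (0.0813), Chac1 (0.0710), Mmd (0.103), Atp13a3 (0.0718), Klhl2 (0.134), Slc30a1 (0.149) and Adam9 (0.145). Without mouse 392 it was lost for Slc12a2 (0.113), Chac1 (0.0628), Mmd (0.115), Atp13a3 (0.0885), Klhl2 (0.116), Bmp2k (0.0628), Slc30a1 (0.113) and Adam9 (0.155). Without mouse 393 it was lost for Rab30 (0.0657), Slc12a2 (0.0791), Chac1 (0.0838), Mmd (0.0512), Klhl2 (0.0941), Slc30a1 (0.0977) and Adam9 (0.109), and without mouse 303 for Bmp2k (0.0638) and Slc30a1 (0.0605). Asns, the asparagine synthetase and another ATF4 target, was 5.99, 7.14 and 8.57 and then 4.82, 7.49 and 3.37, and its change of -2.01 did not pass (0.113).

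Acute phase genes, which hepatocytes switch on in inflammation, did not pass between the days. Of 35 tested, 29 had a lower value on day 6 and the median was -0.38, while 46.7% of all genes had a higher value. The list median was -0.03 without the array of mouse 393 and -0.23 without that of mouse 265. It was -0.62 and -0.61 without those of mice 303 and 263, the last with 1 gene called lower. A2m was 3.25, 9.54 and 14.12 on day 2 and 4.08, 2.76 and 3.94 on day 6 (-5.38, adjusted p = 0.0893), with the day 2 mice spread over most of the scale. Saa1 was 14.80, 14.90 and 15.03 and then 15.17, 14.27 and 11.95 (-1.11, adjusted p = 0.542). Lcn2, lipocalin, was 12.48, 14.00 and 14.35 and then 13.97, 13.87 and 10.60 (-0.80, adjusted p = 0.751). For Saa1 and Lcn2 mouse 393 alone was low on day 6. The changes of Socs3 (-1.26, adjusted p = 0.363), Mt1 (-1.69, 0.398), Mt2 (-1.88, 0.452), Igfbp1 (-1.18, 0.522) and Hamp (-0.10, 0.973) did not pass.

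Markers of other liver cells and further pathways gave no call. Among 23 tested collagen and matrix genes, Col6a3 had the smallest p (-1.56, adjusted p = 0.0893; -1.23 against background), and Col1a1 changed by -0.57 (0.778). The members with the smallest p were Rgs5 for stellate cells (-0.83, adjusted p = 0.121), Bmp2 for endothelium (-1.23, 0.0615), Krt18 for bile duct and progenitor cells (0.98, 0.0831), Gpm6a for mesothelium (-1.71, 0.222), Folr2 for Kupffer cells (2.28, 0.101) and Fcgr1 for recruited macrophages (1.75, 0.118), of which the latter 2 were 1.10 and 1.06 against background. Lyve1, a marker of sinusoidal endothelium, changed by -1.91 (0.132) and Cd163, a macrophage scavenger receptor, by -0.63 (0.279). These single members do not stand for their lists. Of 21 tested endothelial markers 9 were higher and 12 lower, with a median of -0.07. Of 12 bile duct and progenitor markers 5 were higher and 7 lower, also with a median of -0.07. Of 13 stellate cell markers 4 were higher and 9 lower (median -0.36), and of 15 Kupffer cell markers 12 and 3 (0.91). Over all genes 46.7% were higher. Lipid genes had changes of 1.77 for Fasn (0.114), -1.46 for Cyp51 (0.0930), -0.29 for Sqle (0.810), 2.34 for Lpl (0.103) and -0.69 for Plin2 (0.327). The clock genes Dbp and Per2 changed by 0.99 (0.759) and 0.32 (0.873); Dbp was 10.95 in mouse 303 against 6.33 and 6.87 in the other day 6 mice. Jun, an immediate early gene, changed by 1.94 (0.0572). Probe sets that were not used differed by over 1.5 times for Ccna2 (1.83), Gsta3 (1.49), Alas1 (1.07), Asns (-0.79), Socs3 (-0.37), Mt1 (-2.75), Cyp51 (-0.85), Trp53bp1 (-0.03), Lyve1 (-0.54), H2-D1 (0.31 and 1.27) and Rgs5 (0.87 and 0.95).

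The same passage in KO liver gave 9 called genes (0.123%), all higher on day 6 and among them Usp18, Oas1a and Irf7. The difference between the control and KO changes was called for 0 genes with limma, 409 genes (5.59%) had an unadjusted p under 0.05, and the smallest adjusted p was 0.214, for Mcm5 and Top2a. Mcm5 changed by 3.07 in control and 0.33 in KO, a difference of 2.74 (SE 0.51). Top2a changed by 3.20 and 0.18, a difference of 3.02 (SE 0.58). The interferon list had medians of 2.60 in control and 2.48 in KO; Usp18 changed by 4.94 and 4.72, a difference of 0.22 (SE 1.22, adjusted p = 0.985). The mitosis list had medians of 2.07 and 0.55 and the replication list 0.65 and -0.03, but no member's difference passed the test. In KO the mean mitosis level was 4.85 to 6.28 on day 0, 4.58 to 5.40 on day 2 and 5.40 to 5.72 on day 6. In control it was 4.15 to 4.49, 4.50 to 4.72 and 5.32 to 8.92. The part of the KO day 0 level in the smaller change was not tested.

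**Figure D5:**
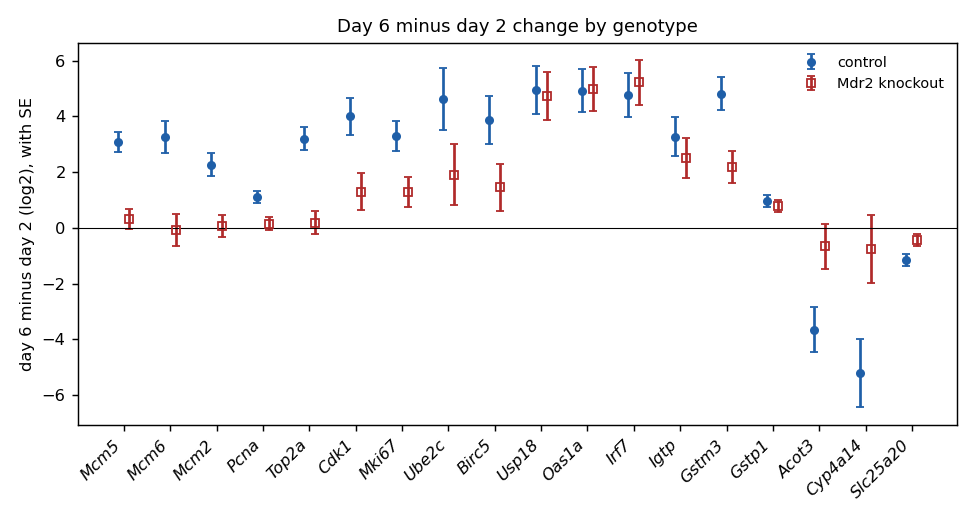
Day 6 minus day 2 change in log2 units for 18 genes, as filled blue circles for control and open red squares for Mdr2 knockout, with bars of 1 SE from the fit. Mcm5 stands at 3.07 in control and 0.33 in knockout, and Usp18 at 4.94 and 4.72; none of the 18 differences between genotypes passed the test.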

How the data were processed

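Liver RNA was labelled by a 3-prime IVT protocol, per the labels' protocols. Per the submitters' processing notes the authors used GCRMA; its version is not stated, nor is any other step. These deposited values were taken as log2, judging by their range, and kept as they were. Of 22690 probe sets, 20380 had 1 gene symbol in the platform annotation and were used; each gene was represented by its probe set of highest overall mean, giving 12393 genes. Precision is limited by the number of arrays.

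All 6 groups were fitted in 1 model over 21 arrays with limma 3.58.1 (lmFit and eBayes, R 4.3.3), with 15 residual degrees of freedom. The contrasts were control day 6 minus day 2, and the same change in control minus that in KO. P-values are two-sided and Benjamini-Hochberg adjusted over 7320 genes, with a threshold of 0.05. The fit was tested on simulated data in which each gene had the same spread in all groups. There it recovered 38% of changes of log2 1 and 83% of changes of log2 2, with 7 false calls. The larger spread of the day 2 arrays was not simulated. Genes were named by rule: the 15 largest rises and falls among called genes without overlap, up to 4 called members of each list or the member with the smallest p, and a set of liver genes; others are marked in the text. The comparison, members and lists were chosen with earlier results of these data known. Alternatives concerned the filter, probe sets, normalization, variance model, array quality and single arrays. Promoters came from RefSeq (GRCm38.p6). Figures were drawn with matplotlib 3.10.9.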

Additional observations from a re-analysis of the deposited data

How the results depend on the processing

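Of 57 called genes named in the text, none changed direction under the alternatives run, and 21 kept the call without any single array. The call was lost by 43 with array weights, 42 with the Gapdh covariate and 57 with only the groups compared. The 142 calls became 224 with every probe set on its own, 17 with array weights, 30 with the Gapdh covariate, 19 without the arrays with a Gapdh difference above 1 and 0 with only the groups compared; leaving out single arrays gave 45 to 852. No filter (168), a filter at log2 6 (113), mean probe sets (122), quantile normalization (173), centring (155) and eBayes with trend and robust (159) stayed within a factor of 1.5. Day 2 and day 6 shared no mouse; with the mouse as a replicate block (random, correlation 0.108) 140 genes were called, 136 of them shared. The genotype difference gave 0 to 13 calls when single arrays were left out. Changes that did not pass and turned sign were those of Cdkn1a (0.038 with mean probe sets, -0.76 to 0.94 without single arrays), Rgs5 (0.24 with mean probe sets), Hmox1 (-0.84 without the arrays with a Gapdh difference above 1) and Sqle (0.30 with array weights, 0.32 with the covariate, 0.85 without those arrays, -0.86 to 0.26 without single arrays). Without single arrays, Mcm4 ran from -0.23 to 1.07, Lcn2 from -1.38 to 0.31, Col1a1 from -1.09 to 0.0033, Dbp from -0.46 to 1.85 and Per2 from -0.58 to 1.10. The causes were not tested. Precision was limited to 3 mice a group and by the unequal RNA quality of the day 2 arrays.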
